A study of Mus musculus with 2 samples.

Results

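The genes described here are the 4 mouse NOTCH receptors (Notch1, Notch2, Notch3 and Notch4), the ligands Jag1, Jag2 and Dll4, and the target genes Hey1, Hey2 and Heyl. They were taken as all non-control probes that carry these gene names in the scanner files, which gave 12 probes for 10 genes, of 39429 probes in all. Each of the 12 probes was printed as 1 spot and was well above background in both channels of both arrays, so all 10 genes were among the 21238 genes tested.

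NOTCH receptors are single-pass membrane proteins that bind JAGGED or DELTA-LIKE ligands on a neighbouring cell. Ligand binding leads to cleavage by ADAM proteases and then by gamma-secretase, and the freed intracellular domain joins the DNA-binding protein RBPJ and switches on repressors of the HES and HEY families. In the ureter this pathway is known as one of the signals that promote smooth muscle differentiation of the mesenchyme, and in blood vessels it acts in endothelium and in the mural cells around it.

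The study measured total RNA (200 ng per channel) of ureters dissected from NMRI mouse embryos at E14.5 (a stage in days of embryonic life) on 2 two-colour Agilent arrays. Mutants, called Smad4cKO (UM) in the labels, were Tbx18(cre/+);Smad4(fl/fl). In these embryos Cre recombinase made from the Tbx18 locus deletes Smad4, the common partner of the BMP and TGFB SMADs, in the ureteric mesenchyme. Controls were Tbx18(+/+);Smad4(fl/+). Both groups thus carry floxed Smad4, 1 allele in controls and both in mutants, and only mutants carry the Cre allele, so effects of that Tbx18 allele and of Smad4 loss cannot be told apart. Array 1 held a female pair with the labelled mutant in green (AlexaFluor555), and array 2 a male pair with the labelled mutant in red (AlexaFluor647). Sex and dye orientation therefore changed together, and n = 2 arrays limits the precision of every value. How many embryos were pooled in an RNA, and whether the pairs were separate litters, is not in the labels. A female and a male pair come from different embryos. The spread between these arrays therefore mixes differences of embryo, sex and dye orientation with technical spread, in parts that cannot be told apart. The p-values rest on that spread and, for the larger part, on the spread of the other genes on the arrays.

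All ratios below are log2 values of the channel labelled Smad4cKO over the channel labelled control, by the dye labels. The authors' deposited table is inverted relative to this on both arrays, under titles that name Smad4cKO before control, so its direction opposes the one given here. Smad4 itself gave -0.69 on array 1 and -0.14 on array 2 (mean -0.42, SE 0.17, limma adjusted p = 1), and its probe may lie outside the deleted part and then checks nothing. Tbx18, 1 allele of which carries Cre in mutants, gave 0.069 and 0.81 (mean 0.44, SE 0.20, limma adjusted p = 1). Contractile genes such as Myh11, the smooth muscle myosin heavy chain (2.08 and 2.65), were brighter in the channel labelled Smad4cKO. Should the dyes have been recorded the wrong way round on both arrays, each sign below would turn, while sizes and tests would stay. Between 68.3% and 70.3% of spots were well above background in the 4 channels, and 0 were saturated.

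Of the 10 genes, limma (adjusted p under 0.05 over all genes) called 0, against 0.00471% of all genes called in either direction. The rule of at least 1.5-fold in 1 direction on both arrays also found 0, against 1.01% of all genes. At an unadjusted limma p under 0.05 there was 1, Jag1, dimmer in the labelled Smad4cKO, against 5.11% of all genes in either direction and 2.97% dimmer. By sign alone, 4 genes (Notch1, Jag1, Hey2 and Heyl) were dimmer in the labelled Smad4cKO on both arrays, where 19.8% of all genes were. Notch1 is among them through a ratio of -0.045 on array 2; from processed signals that ratio was 0.053, which leaves 3 genes, and with the mean of its probes it was 0.12. Only Notch4 was brighter on both, where 19.9% of all genes were, and the other 5 had opposite signs, as 60.3% of all genes did. The median of the 10 mean ratios was -0.045, against 0.0047 over all genes tested.

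**Figure D1:**
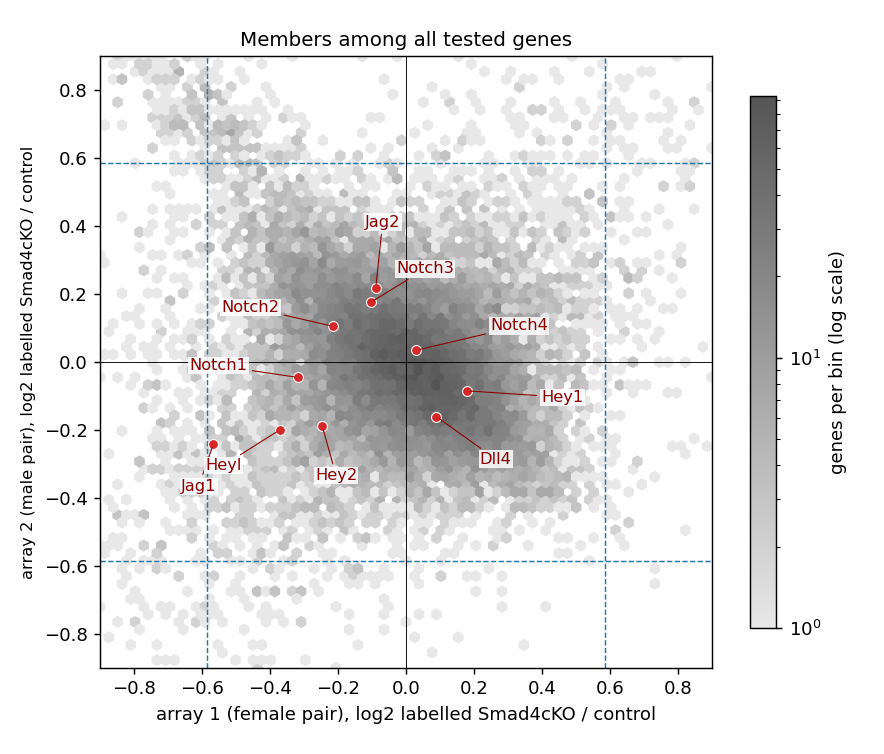
Log2 ratio of each member (red points) on array 1 (x axis, female pair) and array 2 (y axis, male pair), over all tested genes (grey bins, darker for more genes, log scale); dashed lines mark 1.5-fold, and 366 genes beyond 0.9 on either axis are not drawn. All 10 members lie inside the 1.5-fold lines on both arrays, with Jag1 farthest out at -0.57 and -0.24.

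Among the receptors, Notch1 had 2 probes, as did Notch2. Processed signals, which Agilent's software subtracts for background and balances between the dyes, are given for each channel. They compare channels of 1 probe and not probes with each other, since probes bind with different strength. The brighter Notch1 probe (A_55_P2171897; chromosome 2, 26319440 to 26319499, minus strand, mm9) gave 97.1 in the labelled Smad4cKO and 134 in the labelled control of array 1. On array 2 it gave 143 and 138. The mutant channel was thus the lower of the pair on array 1 and about level with the control on array 2. After background correction and loess the log2 ratios were -0.32 and -0.045 (mean -0.18, SE 0.14, n = 2, limma adjusted p = 1; 95% interval -0.53 to 0.17). The other Notch1 probe (A_55_P2047168; 26314630 to 26314689) gave 97.7 against 115 on array 1 and 119 against 83.2 on array 2, with ratios of -0.17 and 0.28. The Notch1 probes therefore shared a sign on array 1 and differed in sign on array 2.

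Notch2, the receptor known for its part in nephron and biliary development and in smooth muscle, was read by a bright and a dim probe. The bright probe (A_52_P289213; chromosome 3, 97953914 to 97953973, plus strand, mm9) gave 4139.8 in the labelled Smad4cKO and 4801 in the labelled control of array 1, and 5147 and 4838 on array 2. Its log2 ratios were -0.21 and 0.11 (mean -0.054, SE 0.15, n = 2, limma adjusted p = 1; 95% interval -0.41 to 0.30). The dim probe (A_55_P1982793; 97951233 to 97951292) gave 56.6 against 62.0 and 69.5 against 66.2, with ratios of 0.094 and 0.15. From processed signals alone the dim probe's ratios were -0.13 and 0.070, so its sign on array 1 changed with the background correction and normalization. With the mean of its probes, after background correction and loess, the Notch2 mean was 0.033.

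The letters of the Notch1 and Notch2 probes that read without a stop codon in at least 1 frame and lie upstream of the gene's other probe, in the direction of transcription, are shown because they sample these receptors at another place than the companion probes. They are the array's 60-base oligos, written 5′ to 3′ in the sense of the transcript:
Notch1 A_55_P2171897: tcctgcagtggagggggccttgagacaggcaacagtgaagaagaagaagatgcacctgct
Notch2 A_55_P1982793: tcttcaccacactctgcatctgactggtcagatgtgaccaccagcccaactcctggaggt
Both have a GC content of 55.0%, and the companion probes have 40.0% (Notch1) and 41.7% (Notch2).

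Notch3, the receptor of vascular mural cells, gave 4403 in the labelled Smad4cKO and 4591 in the labelled control of array 1, and 5212 and 4760.2 on array 2 (A_51_P220162; chromosome 17, 32257848 to 32257907, mm9). Both channels were bright and differed little, in opposite directions on the arrays. The ratios were -0.10 and 0.18 (mean 0.037, SE 0.14, n = 2, limma adjusted p = 1; 95% interval -0.31 to 0.39). Notch4, an endothelial receptor, gave 2323 and 2279.6 on array 1 and 2799.55 and 2722 on array 2, in the same order of channels (A_51_P195875; chromosome 17, 34725120 to 34725179). Its ratios of 0.030 and 0.035 (mean 0.033, SE 0.13, n = 2, limma adjusted p = 1; 95% interval -0.29 to 0.35) were the closest between arrays among the 10 genes. In the processing used here the intervals of the 4 receptors stayed within 1.5-fold in both directions. With median centring those of Notch1 (-0.71 to 0.34), Notch2 (-0.76 to 0.67) and Notch3 (-0.65 to 0.74) passed it, and that of Notch1 also did so from processed signals (-0.60 to 0.20) and from the authors' values (-0.61 to 0.22). These intervals use limma's moderated SE, which borrows most of its information on spread from the other genes on the arrays.

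**Figure D2:**
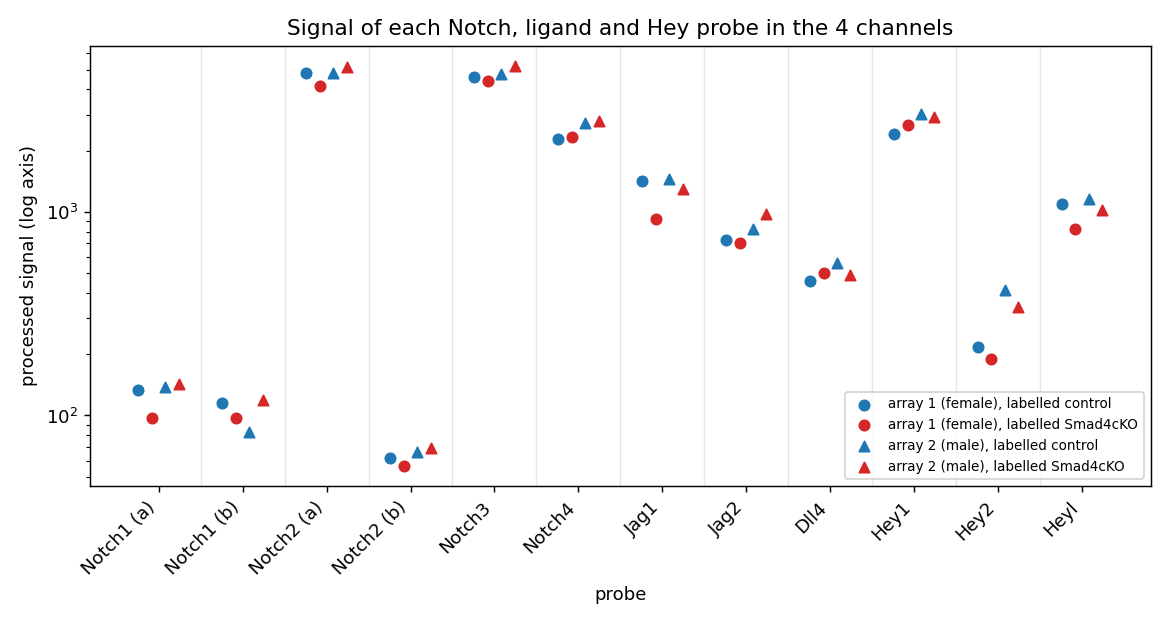
Processed signal (log axis) of each of the 12 probes in the 4 channels; circles are array 1 (female pair), triangles array 2 (male pair), blue the labelled control and red the labelled Smad4cKO, and (a) marks the Notch1 or Notch2 probe that stood for the gene. The channels of a probe lie close together for Notch3 and Notch4. Jag1, Heyl and Hey2 have the lower value in the labelled Smad4cKO on both arrays, and Hey2 is also brighter on array 2 in both channels.

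Jag1, the ligand that activates NOTCH in smooth muscle and mural cells and whose loss causes vascular and bile duct defects, had the largest mean ratio in size among Jag1, Jag2 and Dll4. Its probe (A_52_P634090; chromosome 2, 136907433 to 136907492, minus strand, mm9) gave 919 in the labelled Smad4cKO and 1419 in the labelled control of array 1, and 1294 and 1455 on array 2. The labelled mutant was lower on both arrays, and the signals of the groups did not overlap. Such separation in the same direction held for 2 of the 10 genes, Jag1 and Heyl, against 8.64% of all genes, and the opposite for 0, against the same share, 8.64%. The log2 ratios were -0.57 and -0.24 (mean -0.40, SE 0.15, n = 2, 95% interval -0.76 to -0.044), a 1.32-fold higher signal in the labelled control. The unadjusted limma p was 0.0336 and the limma p adjusted over all 21238 genes was 0.821, so Jag1 was not called. Across the 11 alternative settings its mean lay between -0.41 and -0.39 and its limma adjusted p between 0.151 and 1. Settings that changed only filters, outlier spots, the treatment of probes or the estimate of spread left the mean at -0.40. They therefore say nothing about how stable it is. The interval of Jag1 included 0 with median centring (-1.04 to 0.24) and from the authors' values (-0.80 to 0.015). Of all genes tested, 5.32% had 1 sign on both arrays and a smaller absolute ratio at least as large as that of Jag1.

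The 5 named genes whose pair of ratios lay nearest to that of Jag1, by Euclidean distance over the 2 arrays, were Tmod2 (distance 0.0058), Amigo2 (0.012), Col6a6 (0.021), Adamts17 (0.024) and Dnajc7 (0.025). With 81 genes within 0.1 of Jag1, this likeness over 2 arrays picks no small group.

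Jag2, the JAGGED paralogue, gave 700.1 and 729.7 on array 1 and 971 and 820.3 on array 2, labelled Smad4cKO before labelled control (A_51_P451338; chromosome 12, 114146887 to 114146946, mm9). Its ratios of -0.089 and 0.22 (mean 0.065, SE 0.14, n = 2, limma adjusted p = 1; 95% interval -0.29 to 0.42) had opposite signs. Dll4, the DELTA-LIKE ligand of arterial and sprouting endothelium, gave 502 and 458 on array 1 and 491 and 559 on array 2 (A_51_P384402; chromosome 2, 119160779 to 119160838). Its ratios were 0.090 and -0.16 (mean -0.035, SE 0.14, n = 2, limma adjusted p = 1; 95% interval -0.38 to 0.31). The groups' signals overlapped for both ligands. In this processing the intervals of Jag2 and Dll4 stayed within 1.5-fold in both directions (with median centring that of Jag2 did not, at -0.55 to 0.69), while that of Jag1 reached past 1.5-fold on the side of a lower mutant signal.

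The HEY genes encode helix-loop-helix repressors that are direct targets of the cleaved receptors. Hey1 gave 2685 in the labelled Smad4cKO and 2413 in the labelled control of array 1, and 2937 and 3032 on array 2 (A_51_P258409; chromosome 3, 8663432 to 8663491, mm9). Its ratios of 0.18 and -0.085 (mean 0.048, SE 0.14, n = 2, limma adjusted p = 1; 95% interval -0.30 to 0.39) had opposite signs. Heyl, a target known downstream of Notch3 in vascular smooth muscle, gave 827 and 1099 on array 1 and 1018 and 1152 on array 2 (A_52_P337259; chromosome 4, 122926975 to 122927034). The labelled mutant was lower on both arrays. The ratios were -0.37 and -0.20 (mean -0.29, SE 0.13, n = 2, limma adjusted p = 1; 95% interval -0.62 to 0.046), and the unadjusted limma p was 0.0793. The interval of Heyl includes 0 and reaches past 1.5-fold on the lower side, which it did not with no filter on dim probes or with an intensity trend and robust estimation.

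Hey2 gave 188 in the labelled Smad4cKO and 218 in the labelled control of array 1, and 342 and 413 on array 2 (A_51_P307082; chromosome 10, 30552729 to 30552788, mm9). The labelled mutant was lower on each array, while the arrays differed more from each other than the groups did within an array. Its ratios of -0.25 and -0.19 (mean -0.22, SE 0.13, n = 2, limma adjusted p = 1; 95% interval -0.54 to 0.10) stayed within 1.5-fold. Its interval passed 1.5-fold from processed signals (-0.61 to 0.12), from the authors' values (-0.60 to 0.13) and with median centring (-0.70 to 0.30). Ordered by mean ratio, Jag1 was lowest, then Heyl, Hey2, Notch1, Notch2, Dll4, Notch4, Notch3 and Hey1, with Jag2 highest at 0.065. Each neighbouring pair in that order differed by less than the SE of either gene.

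The software's own p-value of the log ratio, deposited in the authors' scanner files, was under 0.05 for 2 of the 12 probes on array 1, Jag1 (0.00314) and Heyl (0.0481), against 12.0% of all 26670 tested probes. On array 2 it was under 0.05 for 1, the Notch1 probe A_55_P2047168 (0.0395), against 9.31%.

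**Figure D3:**
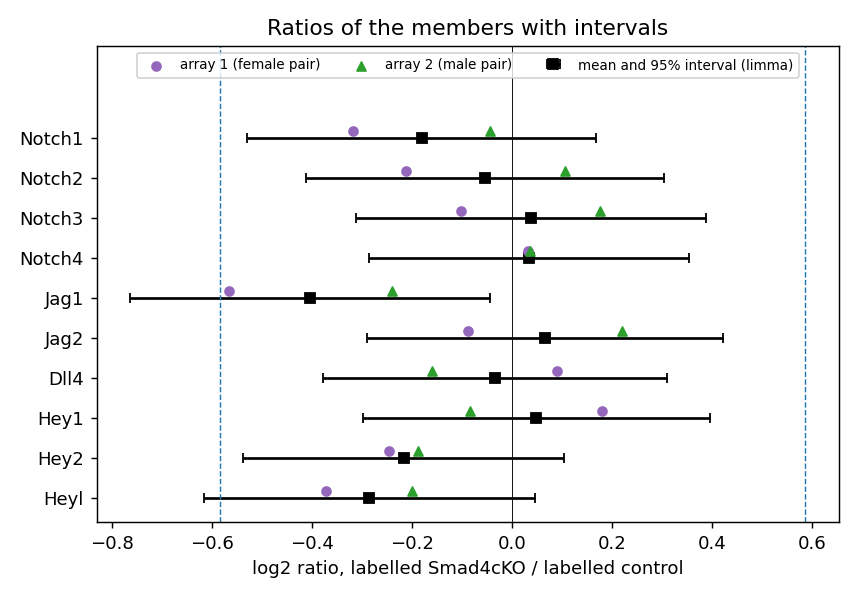
Log2 ratio of labelled Smad4cKO over labelled control (x axis) for the 10 genes; black squares and bars are the mean and limma's 95% interval (n = 2), purple circles array 1, green triangles array 2, and dashed lines 1.5-fold. In this processing the interval of Jag1, -0.76 to -0.044, leaves out 0, and the intervals of Jag1 and Heyl alone cross a 1.5-fold line. With median centring and from the authors' values the interval of Jag1 includes 0.

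RefSeq promoter windows (GRCm38.p6, 250 bases before to 50 after the start) were held for 8 of the 10 genes; Hey1 and Heyl had none. They were searched on both strands for TGGGAA, the core of the RBPJ site, and for GGCGCC, a GC-rich element that SMADs bind, which cannot overlap the former. Of the 8 windows, 1 held TGGGAA and 1 held GGCGCC, and both were in Hey2. Over all 32851 windows of this length the shares were 25.6% and 11.9%. A match describes letters and not a bound site. The Hey2 window is shown because it was the only one with either motif; TGGGAA or its complement is in capitals, at -207 and -3 from the start, and GGCGCC began at 40, beyond the stretch printed:
Hey2 promoter, chr10:30842754-30843033, minus strand: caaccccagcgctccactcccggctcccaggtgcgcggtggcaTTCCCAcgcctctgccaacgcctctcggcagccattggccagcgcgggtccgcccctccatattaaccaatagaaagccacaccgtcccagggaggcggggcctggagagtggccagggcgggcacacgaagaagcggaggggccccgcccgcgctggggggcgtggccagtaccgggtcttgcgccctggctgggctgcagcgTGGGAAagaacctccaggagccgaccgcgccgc

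The other genes of the pathway were followed in 5 lists by role, 69 tested genes in all. Limma called 0 of the 69 over all genes, 7 (10.1%, against 5.11% of all genes) had an unadjusted p under 0.05, 4 brighter and 3 dimmer, and 0 passed 1.5-fold on both arrays, against 1.01%. By sign 20 were brighter on both arrays (29.0%, against 19.9% of all genes), 11 dimmer (15.9%, against 19.8%) and 38 opposite (55.1%, against 60.3%). Their median was 0.0086, against 0.0047 over all genes.

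Among 7 other ligands, Dll1, a DELTA-LIKE ligand of progenitors and arteries, gave -0.39 and -0.33 (mean -0.36, SE 0.13). Dner, a ligand-like protein of neurons, gave -0.65 and -0.31 (mean -0.48, SE 0.15), the largest mean in size of the 69. Dner was the only one of them called under any alternative, by limma with an intensity trend and robust estimation (adjusted p = 0.00179). With the constant prior used here its limma adjusted p was 0.615, and in the other 10 alternatives it lay between 0.0613 and 1. The size of the Dner mean depended on the processing, at -0.90 from processed signals, -0.89 from the authors' values and -0.61 with normexp offset 10. Ccn3, a matricellular protein that binds NOTCH1, gave 0.13 and 0.54, and the neuronal adhesion gene Cntn1 0.17 and 0.29.

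Among 14 genes of receptor glycosylation and cleavage, Aph1b, a subunit of gamma-secretase, gave 0.42 and 0.41 (mean 0.41, SE 0.13, limma adjusted p = 0.632). The protease gene Adam17 gave -0.31 and -0.24, the fringe glycosyltransferase gene Lfng 0.053 and 0.063, and Poglut1, which adds glucose to NOTCH repeats, 0.048 and 0.043. The list's median was 0.016. Among 17 genes of endocytosis and turnover (median 0.033), Fbxw7, which marks the intracellular domain for degradation, gave -0.57 and -0.22 (mean -0.39, SE 0.15, limma adjusted p = 0.881). Mib1 (-0.12 and -0.15), Mib2 (0.12 and 0.082) and Neurl1a (0.24 and 0.063), ubiquitin ligases that act on ligands, had smaller ratios.

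Among 22 genes of the nuclear complex (median -0.028), Rbpj itself gave 0.36 and 0.29 (mean 0.32, SE 0.13, limma adjusted p = 0.978). The corepressor genes Tle2 (0.41 and 0.32, mean 0.36, SE 0.13) and Tle1 (0.18 and 0.21) had positive ratios on each array. Of the 22 genes, 5 were brighter on both arrays (22.7%), 4 dimmer (18.2%) and 13 opposite in sign (59.1%). The shares of all genes were 19.9%, 19.8% and 60.3%. Among 9 HES family and target genes, 5 had positive ratios on each array and 0 negative ones on each, where 19.9% and 19.8% of all genes did, with a median of 0.067. Hes7 is among the 5 through a ratio of 0.0011 on array 2. The others were Efnb2, the ephrin of arterial endothelium (0.27 and 0.52, mean 0.40, SE 0.14, limma adjusted p = 0.783), Myc (0.25 and 0.18), the feedback inhibitor gene Nrarp (0.13 and 0.17) and the cyclin gene Ccnd1 (0.033 and 0.36). The HES genes, which encode repressors related to HEY, gave opposite signs for Hes1 (-0.39 and 0.18), Hes2 (-0.078 and 0.042), Hes5 (0.19 and -0.44) and Hes6 (0.14 and -0.39), and 0.13 and 0.0011 for Hes7; they are named after their values were seen.

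**Figure D4:**
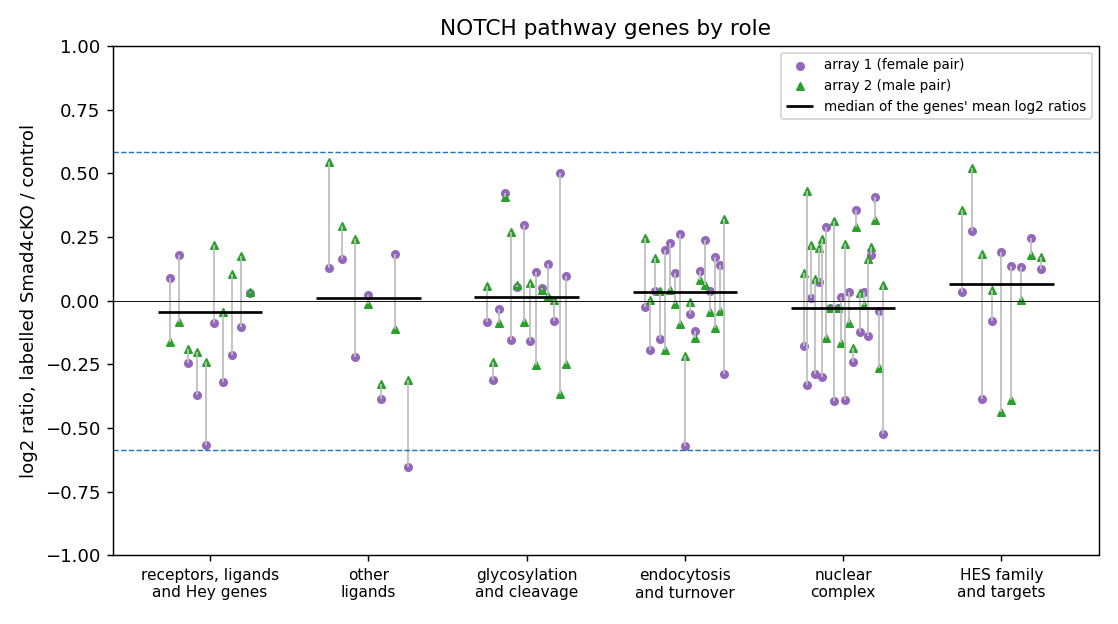
Log2 ratio of labelled Smad4cKO over labelled control for the 10 members and the 69 other pathway genes by role; each grey line joins a gene's array 1 (circle) and array 2 (triangle) ratios, black bars are list medians of the mean ratios, and dashed lines mark 1.5-fold. The medians lie between -0.045 and 0.067, and 0 genes pass a dashed line on both arrays.

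Markers of cell types were read on the same scale. Which of these cells express the NOTCH genes was not measured. In whole ureters, fewer cells of a type and less RNA per cell cannot be told apart. Of 9 tested smooth muscle markers 8 were brighter in the labelled Smad4cKO on both arrays, 6 of them past 1.5-fold, with a median of 1.29. Of 8 pericyte and mural markers, 1 was brighter, 3 were dimmer and 4 had opposite signs (median -0.13). The dimmer ones were Kcnj8 (-0.53 and -0.57), Rgs5 (-0.43 and -0.67) and Abcc9 (-0.13 and -0.26), and the brighter one was Pdgfrb (0.0075 and 0.21). Of 14 endothelial markers 8 were brighter and 1 dimmer (median 0.14), and of 8 arterial markers 3 and 1 (median 0.12). Of 12 neural and glial markers 2 were brighter, S100b (0.69 and 0.58) and Erbb3 (0.39 and 0.086), and 9 dimmer (median -0.31). Of 12 kidney and nephric markers 1 was brighter and 6 were dimmer (median -0.15). The share of all genes was 19.9% brighter and 19.8% dimmer. Past 1.5-fold on both arrays, as 1.01% of all genes were, 3 neural markers were dimmer, the intermediate filament genes Prph (-1.03 and -0.69), Nefl (-1.06 and -0.64) and Nefm (-1.03 and -0.68). Of the kidney and nephric markers 2 were dimmer to that extent, Gdnf (-1.75 and -2.14), the ligand of the RET receptor, and Wt1 (-1.14 and -0.81). The lists other than these and smooth muscle had 0 markers past 1.5-fold on both arrays. Of 15 urothelial markers 5 were brighter and 1 dimmer on both arrays (median 0.099), and of 8 macrophage markers 4 and 0 (median 0.18). Of 7 erythroid markers 1 was brighter and 4 were dimmer (median -0.11). Of 10 ureteric mesenchyme markers 3 were brighter, 2 dimmer and 5 opposite in sign (median 0.023). The medians of the mesenchyme list were -0.28 on array 1 and 0.26 on array 2. All 15 urothelial and all 10 mesenchyme markers passed the filter on background. The part of these cell types in the ratios of the NOTCH genes was not tested.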

How the data were processed

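The authors scanned the arrays and ran Agilent Feature Extraction, version 10.7.3.1 by the submitters' processing notes. Its output gives an intensity for mean, local background and processed signal of every spot and the log10 red-to-green ratio with its p-value, per the file headers. A table deposited by the authors gives signed folds (a score here) inverse to the direction used; the sources used here do not name its software. Mean signals were corrected with normexp (offset 50) and loess within each array, control spots at weight 0 (limma 3.58.1, R 4.3.3), and turned to labelled Smad4cKO over labelled control. Flagged outlier spots (237 and 221 of 43020) were left out. Tested probes (26670 of 39429) were those well above background on each array in at least 1 and the same labelled group, and the brightest stood for its gene. Log2 ratios were tested against 0 with lmFit and eBayes (1 residual and 4.89 prior degrees of freedom) with Benjamini-Hochberg adjustment. The fit was run on simulated ratios drawn from a model like its own, without effects of dye, sex or intensity. That run cannot show how the fit behaves on these arrays. Symbols followed RefSeq accessions (GRCm38.p6, 26412 probes matched). Coordinates are the files' (mm9); exon and UTR positions were not analysed here. Both arrays share 1 slide and scan. Members, lists and rules were chosen with earlier results of these data known: all members are named, with up to 4 genes per pathway list that had 1 sign on both arrays, by the smaller absolute ratio (1 such gene is not reported here), and the 5 genes nearest the member with the largest smaller ratio.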

Additional observations from a re-analysis of the deposited data

Results flagged for a closer look

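In 5 of the 10 genes the female pair (array 1) and the male pair (array 2) had ratios of opposite sign, which is why they are listed; 60.3% of all tested genes did the same. Notch2 gave -0.21 and 0.11, Notch3 -0.10 and 0.18, Jag2 -0.089 and 0.22, Dll4 0.090 and -0.16, and Hey1 0.18 and -0.085, array 1 before array 2. With 1 array per sex the difference was not tested, and sex cannot be told apart from dye orientation. Notch2, Notch3 and Jag2 were brighter in red on both arrays, Dll4 and Hey1 in green. This follows from their opposite signs, since the dyes were exchanged between the arrays. Of all 10 genes, 8 had a positive mean red-over-green ratio, against 48.2% of all genes tested, and the difference was not tested.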

How the results depend on the processing

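The mean ratios of 9 of the 10 genes kept their sign in all 11 alternative settings. Notch2 turned to 0.033 with the mean of its probes. Changed filters on dim probes, kept outlier spots, the intensity trend and every probe its own feature left all 10 mean ratios as they were. These settings therefore say nothing about signs. The mean of probes moved only Notch1 and Notch2. The authors' values follow the processed signals up to a near-constant shift on each array. No member was called by limma or passed 1.5-fold on both arrays in any of the 11 settings. Leaving out an array leaves 1 ratio and no test. Counts over all genes moved more. Limma's 0 brighter and 1 dimmer became 143 and 160 from processed signals, 35 and 31 with normexp offset 10, 73 and 77 from the authors' values, 298 and 407 with an intensity trend and robust estimation, and 1 and 3 with both channels above background. The dimmer count was 0 in the settings of outlier spots kept, probes of a gene averaged, or median centring, and 2 with every probe its own feature. The 104 brighter and 111 dimmer genes past 1.5-fold became 184 and 199 from processed signals, 177 and 184 from the authors' values, and 21 and 25 at 2-fold. On 1 array they ranged from 256 to 635 brighter and from 242 to 684 dimmer. Among the 69 other pathway genes the intensity trend gave 1 limma call (Dner), and on array 1 alone 1 gene, Dner, was dimmer past 1.5-fold, against 0 on array 2 alone. The pairing was used already, since each array's ratio is the difference within a pair. With 1 group of ratios no further pairing was possible. The dim probes of Notch1 and Notch2 lie nearest to background and limit what their ratios can show.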

Other observations

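Hey2 stood apart from the other members in brightness between the arrays. With both channels averaged and the median of all tested probes (0.18, log2 of array 2 over array 1) taken off, Hey2 was 0.72 brighter on array 2, or 1.64-fold. Of all tested probes 1.29% shifted by at least as much in either direction. Its mutant and control channels shifted alike, from 188 to 342 and from 218 to 413. The other 11 probes shifted by between -0.26 (Notch1 A_55_P2047168) and 0.14 (Jag2), and Hey1 and Heyl by 0.054 and 0.0081. The arrays differ in sex, dye orientation and RNA, which cannot be told apart here.

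In the authors' deposited table, which holds the inverse ratio, Jag1 has a signed fold of 1.54 on array 1 and 1.12 on array 2, Heyl 1.33 and 1.12, and Hey2 1.16 and 1.20.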
